A study of Mus musculus with 6 samples.

Results

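Oxidative phosphorylation is the chain of reactions by which mitochondria use oxygen to make ATP. Complexes I and II pass electrons from NADH and succinate to coenzyme Q, complex III passes them on to cytochrome c, and complex IV passes them to oxygen. Complexes I, III and IV pump protons across the inner membrane as they do so, and complex V, the ATP synthase, lets the protons back and makes ATP. Most subunits are encoded in the nucleus and are assembled with a small mitochondrially encoded core, and in the brain this ATP pays mainly for ion pumping and synaptic transmission. The nuclear-encoded subunit genes were taken from the deposited count table by symbol: Ndufa, b, c, s and v genes, the Sdh, Uqcr, Cox4 to Cox8 and Atp5 genes, and Cyc1 and Cycs. The rule found 86 of 23420 genes and used no measured value.

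The 86 genes comprised 35 of complex I, 4 of complex II, 9 of complex III, 20 of complex IV, 15 of complex V and Cycs, which encodes cytochrome c. Ndufa4 and Ndufa4l2 were placed with complex IV, since the Ndufa4 protein is a cytochrome c oxidase subunit. Atp5s and Atp5sl matched the rule by their symbols but encode no ATP synthase subunit, and these 2 genes are counted apart from the complexes.

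The libraries were made from neocortex, the layered dorsal forebrain, of mouse embryos at embryonic day 18.5, shortly before birth. There were 3 libraries labelled Tshz3 mutant and 3 wild-type libraries, each from a separate pool of cortices of 3 to 4 embryos drawn from several litters. Tshz3 encodes a zinc finger transcription factor. The sources used here do not name the strain, the mutant allele or the part of Tshz3 it removes. Total counts were 19894144 to 24147810 in mutant libraries and 18569383 to 21052832 in wild-type libraries. Levels are given as CPM, the count divided by the scaled library total. Tshz3 itself had 89.8 to 99.2 CPM in mutant libraries and 78.7 to 89.3 CPM in wild-type libraries, so its gene-level count did not check the labels. All 8 neocortex markers examined had reads, summing to 2075 to 2266 CPM in mutant libraries and 1931 to 2150 CPM in wild-type libraries. Muscle markers summed to 3.0 to 4.03 CPM in mutant libraries and 4.22 to 4.57 CPM in wild-type libraries. Of 8 blood marker names 6 were in the table. They summed to 8.46 to 11.4 CPM in mutant libraries and 6.33 to 12.9 CPM in wild-type libraries, with Hba-a1, Hba-a2 and Hbb-b1 at 0. Whether globin reads were lost in counting was not tested, so these sums do not measure how much blood was present. In such bulk tissue, fewer cells of a type and less RNA per cell cannot be told apart.

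No oxidative phosphorylation gene differed between mutant and wild-type neocortex past the threshold of an adjusted p of 0.05. With edgeR's quasi-likelihood test, 0 of the 81 members abundant enough to be tested were called, where 0.0752% of all 14618 tested genes were. Fitting the library number as a block gave 0 of 81 members against 3.46% of all tested genes, and DESeq2 gave 0 of 81 against 0.739%. At an unadjusted p under 0.05 the unpaired edgeR test passed 1 member, Cox5b, which is 1.23% of the members against 7.09% of all tested genes. The blocked test passed 6 members at that level, 7.41% against 17.9% of all tested genes. These were Atp5f1, Cox5b, Cox7a2l, Ndufb5, Ndufv2 and Uqcrc2.

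The fold changes of the members were small. Their median log2 fold change, mutant over wild type, was −0.04, and the median over all tested genes was −0.01. The members' values ran from −0.26 for Cox7a1 to 0.06 for Atp5k and Ndufb3. Those of all tested genes ran from −4.34 to 2.77, but such a range widens with the number of genes. The lower and upper quartiles were −0.08 and −0.01 for the members and −0.09 and 0.08 for all tested genes. Of the 81 tested members, 67 (82.7%) lay within 0.1 of 0, and 55.3% of all tested genes did. Among genes with a mean of at least 10 CPM the shares were 85.5% of 76 members and 66.5% of 10143 genes. For 73 of these 76 members the 95% interval of the log2 fold change, taken gene by gene, lay within 0.3 of 0 in both directions. The widest of the 76 intervals, that of Cox7b, reached from −0.57 to 0.24. Of the 81 tested members, 65 had a value below 0, or 80.2% against 52.3% of all tested genes. That share was 56.8% without wild-type library 1 and 95.1% without wild-type library 2.

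**Figure D1:**
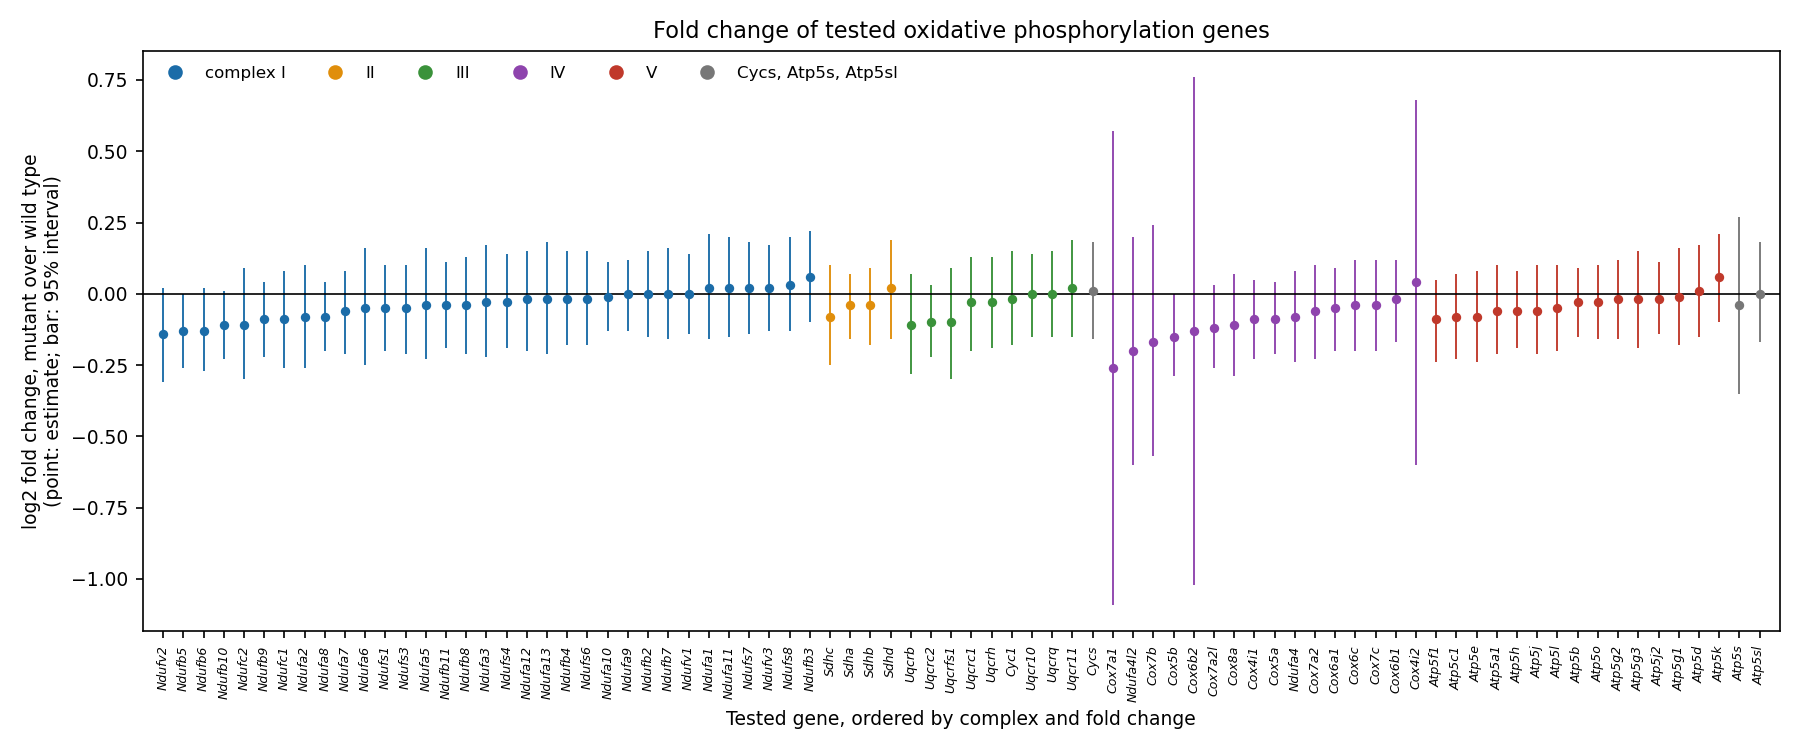
Log2 fold change of the tested genes, mutant over wild type, 1 gene not being shown, each with its 95% interval from edgeR, coloured and ordered by complex. Nearly all intervals of abundant genes span 0, and the wide ones in complex IV belong to the scarce isoforms Cox7a1, Cox6b2, Cox4i2 and Ndufa4l2 and to Cox7b.

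Transcript levels per length differed between the complexes in the same order in both genotypes. Levels were compared between genes as CPM per kilobase of a principal annotated transcript, and medians were taken over subunits with a mean of at least 10 CPM. Over all 6 libraries the median was 68.9 CPM per kb for complex I, 59.6 for complex II, 111 for complex III, 188 for complex IV and 210 for complex V. Complexes IV and V were thus above complexes I and II in transcript per length. With the summed length of all annotated exons in place of transcript length, the medians were 54.7, 59.6, 103, 167 and 173 CPM per kb for complexes I to V, so that complexes I and II changed places. Of the genes in the complexes, the highest was Atp5b, the catalytic beta subunit of ATP synthase, at 489 ± 6.61 CPM per kb in mutant libraries and 500 ± 18.5 CPM per kb in wild type (SD, n = 3 each). With transcript length, the lowest of the abundant subunits was Ndufc1 of complex I, at 24.4 ± 1.13 CPM per kb in mutant libraries and 26.0 ± 1.21 CPM per kb in wild type. Within a complex the highest abundant subunit exceeded the lowest by 3.29-fold in complex IV to 5.21-fold in complex I. Both this spread and the lowest gene depend on the length used. With the summed exon length Ndufb2 was lowest, at 6.73 CPM per kb over the 6 libraries, and the spread ran from 3.39-fold in complex II to 22.3-fold in complex V. In CPM not divided by length, the 76 abundant members ranged from 23.3 to 948 with a median of 88.7. The lowest of them was Atp5sl, which encodes no subunit. The median of all tested genes, taken without the bound of 10 CPM, was 27.6.

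**Figure D2:**
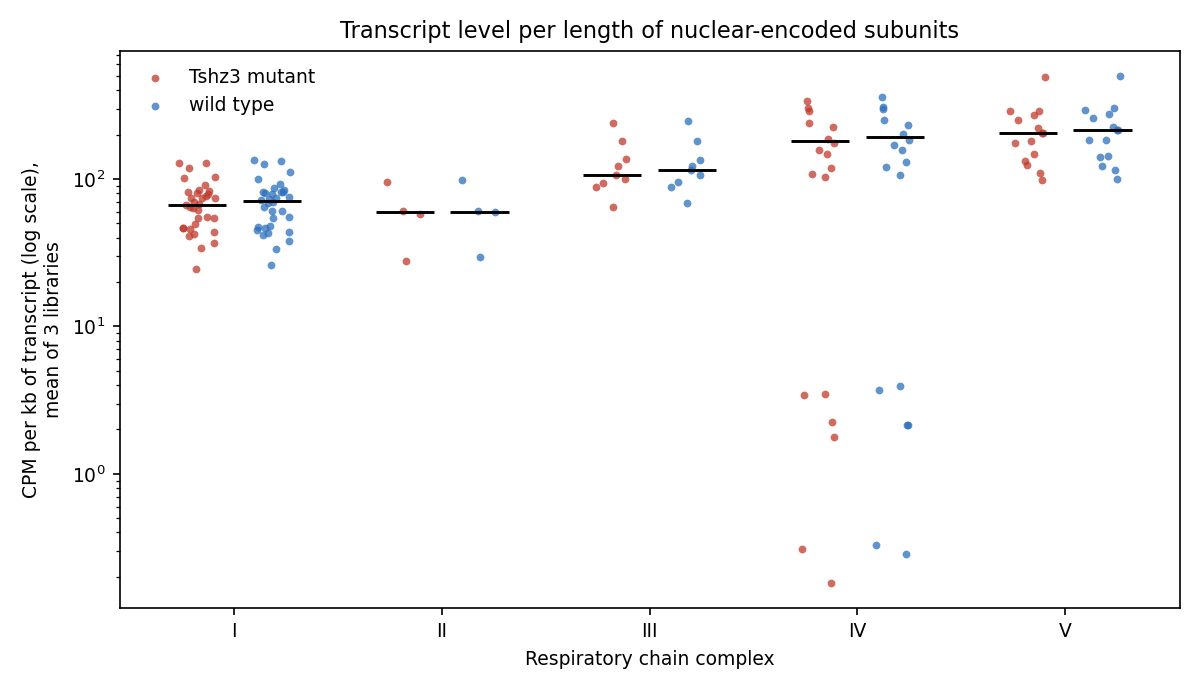
Each point is a gene's mean level over 3 libraries in CPM per kilobase of transcript, on a log scale, by complex, for mutant libraries (red, left) and wild type (blue, right). The black lines are medians over genes with a mean of at least 10 CPM, which lie near the same height in both genotypes within each complex, and the points under 10 CPM per kb are scarce complex IV isoforms. Ndufs5, Cox8b and Cox8c, at 0, are not drawn.

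Promoters of respiratory chain genes are known in mammals to hold, in many cases, the recognition sequence of NRF-1, the factor encoded by Nrf1 that activates many genes of the respiratory chain. Promoter sequences from RefSeq (GRCm38.p6), covering 250 bases before to 50 bases after the start, were found for 70 members. The letters searched for were GCGC, any base, then TGCGC, or their reverse complement GCGCA, any base, then GCGC, so that both strands were covered. They occurred for 17 of 70 members (24.286%). The share was 5.188% of the 27025 genes of the promoter table and 8.69% of the 14500 of these genes with a read in these libraries. A gene with more than 1 promoter was counted once, if any of them held the letters. The YY1 letters AAGATGGCG occurred for 8 of 70 members (11.429%), against 1.639% of all genes of the promoter table and 2.628% of those with a read. Only Atp5j and Atp5sl, the latter no subunit, held them wholly upstream of the start. In the other members with these letters they began 22 to 35 bases after the start. The GABP letters CCGGAAGT occurred in 5 of 70 (7.143%), against 4.307% and 6.903%. A match is a description of letters and no evidence of binding here, and overlaps of different motifs were not removed. The stretches below are shown because they carry the NRF-1 letters (in capitals) upstream of the start in genes of complexes I, II, IV and V, and they are written 5′ to 3′ on the gene's strand.
Ndufa11, chr17:56717677-56717736, plus strand: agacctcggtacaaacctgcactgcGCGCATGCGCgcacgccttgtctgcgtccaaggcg
Sdha, chr13:74350304-74350363, minus strand: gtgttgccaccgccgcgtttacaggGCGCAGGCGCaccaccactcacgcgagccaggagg
Cox6a1, chr5:115349086-115349145, minus strand: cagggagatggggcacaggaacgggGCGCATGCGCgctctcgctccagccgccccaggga
Atp5k, chr5:108434415-108434474, minus strand: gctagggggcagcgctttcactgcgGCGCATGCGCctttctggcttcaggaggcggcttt
Atp5g2, chr15:102671055-102671114, minus strand: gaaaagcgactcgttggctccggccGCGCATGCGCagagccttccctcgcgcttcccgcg

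The first base of the capitals lay 60 bases before the start in Ndufa11, 98 in Sdha, 162 in Cox6a1, 50 in Atp5k and 42 in Atp5g2. Sdha held 3 such matches within its promoter, all wholly upstream. The 4 printed genes besides Sdha carried GCGCATGCGC, which reads the same on both strands, and Sdha carried GCGCAGGCGC at the stretch shown.

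Complex I, the NADH dehydrogenase, showed no subunit past the threshold among the 34 tested, and their median log2 fold change was −0.03. Ndufv2, an iron-sulfur subunit of the arm that binds NADH, had the lowest value of the complex. It had 95.5, 90.7 and 94.1 CPM in mutant libraries 1, 2 and 3, and 107, 92.9 and 110 CPM in wild-type libraries 1, 2 and 3. The ranges overlapped through wild-type library 2, and the log2 fold change was −0.14 (SE 0.07, n = 3 per group, edgeR adjusted p = 0.768). Ndufb3, an accessory subunit of the membrane arm, had the highest, with 36.2, 37.9 and 39.9 CPM in mutant libraries, against 38.1, 35.1 and 36.0 CPM in wild-type libraries. Its libraries also overlapped, and the log2 fold change was 0.06 (SE 0.07, edgeR adjusted p = 0.927). Ndufa7, an accessory subunit and the highest of complex I per length, had 66.3, 65.1 and 72.5 CPM in mutant libraries and 73.0, 70.3 and 69.8 CPM in wild-type libraries.

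The catalytic core subunits of complex I hold the flavin and the iron-sulfur clusters and form the site for coenzyme Q. Among them, Ndufs1, the largest iron-sulfur subunit, had a log2 fold change of −0.05 (SE 0.06), Ndufv1, which carries the flavin, had one within 0.01 of 0 whose sign turned with the block, DESeq2 and RLE scaling (SE 0.06), and Ndufs8, an iron-sulfur subunit, had one of 0.03 (SE 0.07). These genes were named after their values were seen. The 27 tested accessory subunits had log2 fold changes from −0.13 for Ndufb5 to 0.06 for Ndufb3 and levels from 24.4 to 129 CPM per kb in mutant libraries and from 26.0 to 134 CPM per kb in wild type. The accessory subunit Ndufs5 had 0 counts in all 6 libraries, which allows up to 0.124 to 0.151 CPM in a mutant library and 0.142 to 0.162 CPM in a wild-type library, taking 3 counts as the limit for counting error. A near-identical processed pseudogene, BC002163, matches 46.9% of the Ndufs5 transcript, and whether reads were lost to it was not tested.

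Complex II, succinate dehydrogenase, joins the citrate cycle to the respiratory chain and was the complex with the fewest subunits. Sdhb, its iron-sulfur subunit and the highest of the 4 per length, had 105, 107 and 117 CPM in mutant libraries, against 114, 111 and 114 CPM in wild-type libraries. The membrane anchor subunit Sdhc had 89.1, 86.1 and 91.5 CPM in mutant libraries, against 102, 84.7 and 94.8 CPM in wild-type libraries. The other anchor, Sdhd, had 75.2, 74.4 and 75.5 CPM in mutant libraries, against 77.7, 66.1 and 78.8 CPM in wild-type libraries. For all 3 genes the libraries of the genotypes overlapped. The log2 fold changes were −0.04 for Sdhb, −0.08 for Sdhc and 0.02 for Sdhd, with SEs of 0.06, 0.07 and 0.08 and edgeR adjusted p of 0.947, 0.913 and 0.989. Sdha, the flavoprotein that oxidises succinate, had a log2 fold change of −0.04.

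Complex III, the cytochrome bc1 complex, had log2 fold changes from −0.11 to 0.02 over its 9 genes. Uqcrb, the ubiquinone-binding protein, had the lowest, with 59.8, 52.5 and 59.6 CPM in mutant libraries and 63.9, 57.5 and 63.5 CPM in wild-type libraries. Its libraries overlapped (log2 fold change −0.11, SE 0.08, edgeR adjusted p = 0.854), and 62.8% of its transcript matches processed pseudogenes closely, so its count is uncertain. Uqcr11, a small subunit, had the highest, with 56.7, 61.7 and 62.8 CPM in mutant libraries and 64.0, 57.5 and 57.0 CPM in wild-type libraries. Uqcrh, the hinge protein that helps cytochrome c1 meet cytochrome c, was the highest of the complex per length, with 133, 124 and 138 CPM in mutant libraries and 145, 128 and 130 CPM in wild-type libraries. The haem protein cytochrome c1, encoded by Cyc1, had 133, 130 and 139 CPM in mutant libraries and 146, 124 and 136 CPM in wild-type libraries. Cycs, the mobile carrier between complexes III and IV, had 122, 116 and 126 CPM in mutant libraries and 121, 110 and 131 CPM in wild-type libraries. The log2 fold changes of these 4 genes were 0.02 for Uqcr11, −0.03 for Uqcrh, −0.02 for Cyc1 and 0.01 for Cycs, each with an SE of 0.07, and the libraries overlapped in all 4.

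Complex IV, cytochrome c oxidase, had the lowest median of the complexes, −0.09 on the log2 scale over 16 tested genes, and 15 of these had a value below 0. No gene of the complex was past the threshold. Cox5b, a zinc-binding subunit facing the matrix, had 96.1, 101 and 110 CPM in mutant libraries, against 116, 112 and 113 CPM in wild-type libraries. All 3 mutant libraries lay below all 3 wild-type libraries, by as little as 110 against 112 CPM. Its log2 fold change was −0.15 (SE 0.06, 95% interval from −0.29 to just under 0), with an edgeR adjusted p of 0.678 without the block and 0.112 with it, and it was named after its values were seen. A predicted gene, Gm11273, matches 45.1% of the Cox5b transcript closely. Cox7b, named for its interval, had 119, 99.0 and 108 CPM in mutant libraries and 156, 98.4 and 110 CPM in wild-type libraries, so wild-type library 1 alone stood above the others.

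The isoforms of complex IV subunits that are best known from tissues other than brain or from low oxygen were scarce in both genotypes. Bulk levels do not show which cells hold them. Cox4i1, the common form of the subunit that binds ATP, had 247, 244 and 262 CPM in mutant libraries and 284, 260 and 257 CPM in wild-type libraries. Cox4i2, its form known from lung and from low oxygen, had 1.56, 1.21 and 2.12 CPM in mutant libraries and 1.90, 1.35 and 1.47 CPM in wild-type libraries. Per length, Cox4i1 exceeded Cox4i2 by 158-fold over the 6 libraries. Its log2 fold change was −0.09 (SE 0.06, edgeR adjusted p = 0.832) and that of Cox4i2 was 0.04 (SE 0.28, edgeR adjusted p = 0.99).

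Cox6a1, the form of subunit 6a found outside muscle, had 154, 164 and 178 CPM in mutant libraries and 168, 173 and 173 CPM in wild-type libraries. Its heart and skeletal muscle counterpart Cox6a2 had 1, 3 and 4 counts in mutant libraries and 6, 5 and 1 counts in wild-type libraries, too few to be tested. Cox7a2, the common form of subunit 7a, had 111, 111 and 126 CPM in mutant libraries and 129, 116 and 120 CPM in wild-type libraries. Its muscle counterpart Cox7a1 had 0.66, 0.542 and 0.907 CPM in mutant libraries and 0.569, 0.821 and 1.14 CPM in wild-type libraries. Cox7a2l, the relative that links complexes III and IV into supercomplexes, had 170, 163 and 175 CPM in mutant libraries and 196, 174 and 180 CPM in wild-type libraries, and its log2 fold change was −0.12 (SE 0.06, edgeR adjusted p = 0.797). The mutant libraries of Cox7a2l reached as high as 175 CPM and the wild-type libraries as low as 174 CPM.

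Cox6b1 had 183, 179 and 203 CPM in mutant libraries and 197, 185 and 193 CPM in wild-type libraries, and its testis counterpart Cox6b2 had 2.12, 1.21 and 1.41 CPM in mutant libraries and 2.70, 1.30 and 1.14 CPM in wild-type libraries. Per length the common form exceeded the other by 86.7-fold for Cox6b1 over Cox6b2 and by 91.6-fold for Cox7a2 over Cox7a1. Cox8a, the common subunit 8, had 97.5, 102 and 111 CPM in mutant libraries and 116, 117 and 101 CPM in wild-type libraries, while the muscle form Cox8b and the testis form Cox8c had 0 counts in all 6 libraries. Cox7b2, known from testis, stayed at 0.141 to 0.208 CPM in mutant libraries and 0.0966 to 0.332 CPM in wild-type libraries and was too low to be tested. Ndufa4 had 142, 142 and 155 CPM in mutant libraries and 159, 142 and 162 CPM in wild-type libraries. Its counterpart Ndufa4l2, induced by low oxygen, had 3.35, 3.42 and 2.92 CPM in mutant libraries and 4.17, 3.28 and 3.65 CPM in wild-type libraries, and its share of the counts of the pair was 1.85% to 2.35% in mutant libraries and 2.2% to 2.56% in wild-type libraries. In every such pair with reads the libraries of the genotypes overlapped for both genes, and no scarce isoform was called.

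**Figure D3:**
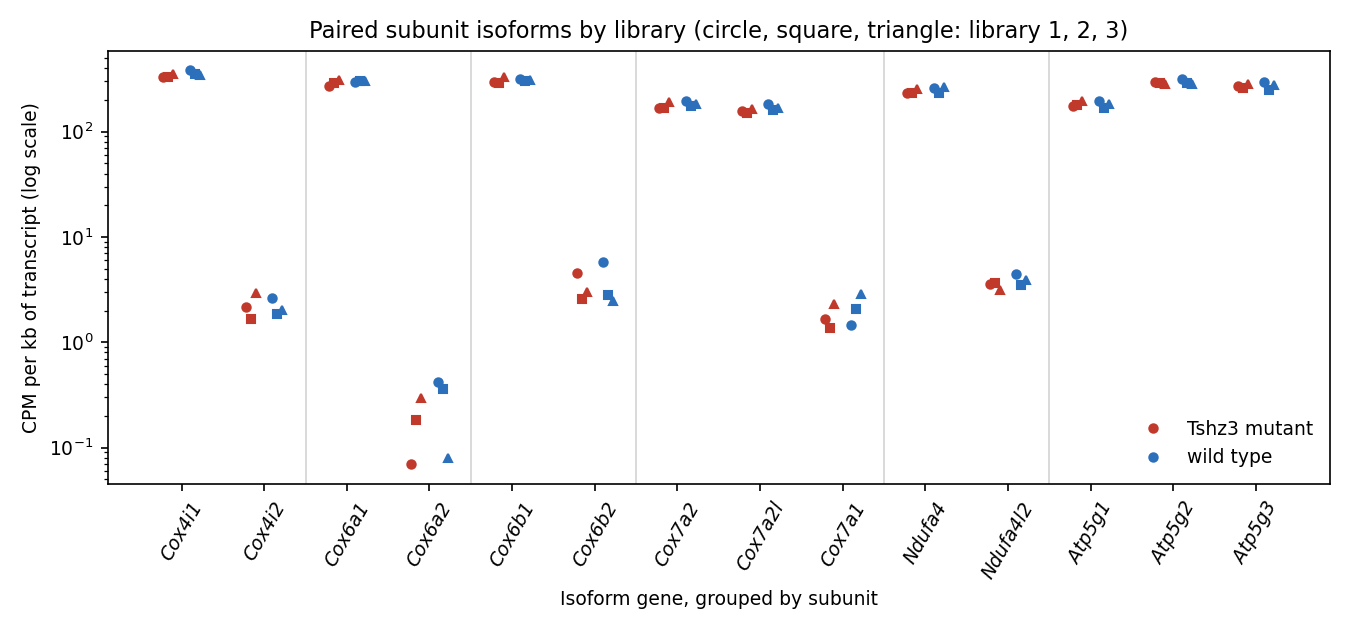
Level of each isoform gene in CPM per kilobase of transcript on a log scale, 1 point per library, mutant (red) left of wild type (blue), grouped by subunit. The scarce isoforms Cox4i2, Cox6a2, Cox6b2, Cox7a1 and Ndufa4l2 lie far below their common partners in all 6 libraries, and the 3 Atp5g genes lie close together.

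Complex V, the ATP synthase, had log2 fold changes from −0.09 to 0.06 over 15 genes. Atp5b had 932, 928 and 952 CPM in mutant libraries, against 988, 919 and 966 CPM in wild-type libraries, and overlapped (log2 fold change −0.03, SE 0.05, 95% interval −0.15 to 0.09, edgeR adjusted p = 0.96). In the F1 part that makes ATP, which Atp5b shares with Atp5a1, Atp5c1, Atp5d and Atp5e, log2 fold changes ran from −0.08 for Atp5c1 to 0.01 for Atp5d. Atp5a1, the alpha subunit, stood at 291 ± 8.72 CPM per kb in mutant libraries and 303 ± 22.1 CPM per kb in wild type (SD, n = 3 each). In the assembled F1 part alpha and beta occur in equal numbers, whereas per length Atp5b transcript exceeded Atp5a1 transcript in both genotypes.

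Atp5f1, the b subunit of the peripheral stalk that holds F1 still, had the lowest fold change of the complex. It had 211, 211 and 219 CPM in mutant libraries and 233, 211 and 240 CPM in wild-type libraries, overlapping through wild-type library 2 (log2 fold change −0.09, SE 0.06, edgeR adjusted p = 0.827). A processed pseudogene, Gm12231, matches 43.4% of the Atp5f1 transcript closely. Atp5k, the small membrane subunit e, had the highest, with 54.2, 51.8 and 59.2 CPM in mutant libraries and 53.8, 52.9 and 52.3 CPM in wild-type libraries (log2 fold change 0.06, SE 0.07, edgeR adjusted p = 0.941).

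The c ring, which turns as protons pass, is built from a single mature protein that Atp5g1, Atp5g2 and Atp5g3 all encode behind different mitochondrial targeting sequences. Atp5g1 had 104, 106 and 116 CPM in mutant libraries and 117, 101 and 109 CPM in wild-type libraries. Atp5g2 had 131, 129 and 126 CPM in mutant libraries and 139, 129 and 124 CPM in wild-type libraries. Atp5g3 had 195, 185 and 204 CPM in mutant libraries and 213, 179 and 200 CPM in wild-type libraries. As shares of their summed level per kilobase, Atp5g1 made up 24.4% ± 0.955 in mutant libraries and 24.3% ± 0.431 in wild type, Atp5g2 39.1% ± 1.5 in mutant libraries and 39.2% ± 1.66 in wild type, and Atp5g3 36.5% ± 0.874 in mutant libraries and 36.6% ± 1.23 in wild type (SD, n = 3 each). The mix of the 3 genes thus differed between genotypes by less than the spread between libraries. The shares depend on the length used: with the summed exon length, Atp5g1 made up 4.73% in mutant libraries and 4.71% in wild type.

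Summed over their subunits, the complexes also overlapped between genotypes. Complex IV summed to 1590, 1573 and 1704 CPM in mutant libraries 1, 2 and 3, and to 1824, 1643 and 1691 CPM in wild-type libraries 1, 2 and 3. The mean was 1622 ± 71.4 CPM in mutant libraries and 1720 ± 93.7 CPM in wild type (SD, n = 3 each), a ratio of 0.944. Complex I summed to 2141 ± 68.2 CPM in mutant libraries and 2202 ± 106 CPM in wild type, a ratio of 0.972, and complex V to 3396 ± 81.7 CPM in mutant libraries and 3497 ± 195 CPM in wild type, a ratio of 0.971. Over all 84 genes of the complexes and Cycs the sum was 8609, 8429 and 8951 CPM in mutant libraries, against 9393, 8467 and 9032 CPM in wild-type libraries, a ratio of means of 0.966. The highest sum was that of wild-type library 1, and the sums of the other 5 libraries were interleaved between genotypes. Within each library number the total was nonetheless lower in mutant, by 8609 against 9393, 8429 against 8467 and 8951 against 9032 CPM, and so was the sum of complex I. For complexes II, IV and V this held for 2 of the 3 numbers, and for complex III for all 3 except with unscaled totals, where it held for 2. All 86 genes together held 0.84% to 0.897% of the counts of mutant libraries and 0.847% to 0.944% of those of wild-type libraries.

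**Figure D4:**
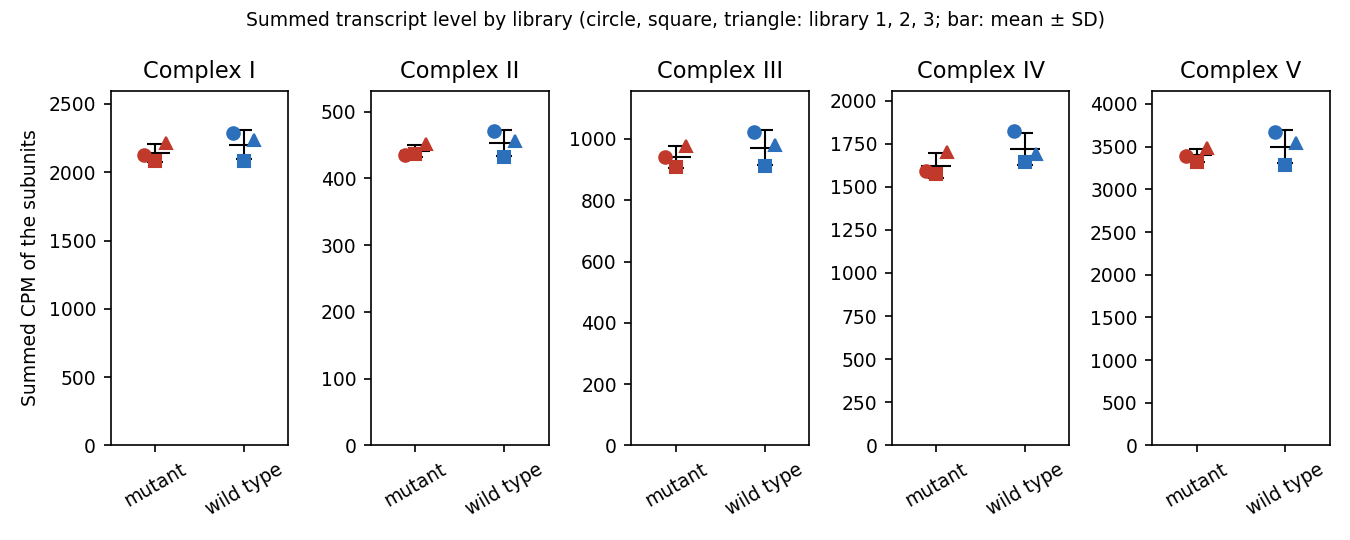
Summed level of the subunits of each complex in each library, in CPM, for mutant (left) and wild type (right), with circle, square and triangle for libraries 1, 2 and 3 and bars for mean ± SD. Wild-type library 1 has the highest sum in every complex, and the other 5 libraries overlap between genotypes.

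The oxidative phosphorylation genes shifted together from library to library. For the 76 members with a mean of at least 10 CPM, each library's level was set against the gene's own mean over the 6 libraries. The median deviation on the log2 scale was −0.03, −0.06 and 0.03 in mutant libraries 1 to 3, and 0.09, −0.06 and 0.03 in wild-type libraries 1 to 3. In wild-type library 1 only 2 of the 76 genes lay below their own mean, while 58 did in mutant library 1, 71 in mutant library 2 and 66 in wild-type library 2. In mutant library 3 it was 21 and in wild-type library 3 it was 22. Wild-type library 1 held the highest level of 41 of the 76 members (53.9%), and of 20.3% of the 10140 genes at that level with reads in every library, 3 more having none in some library. The genes with NRF-1 letters printed above and those without them were not compared. For all genes at that level the library medians lay within 0.01 of 0, and 4727 to 5476 of 10140 lay below their mean. The scaling of library totals sets most genes level between libraries, so these medians lie near 0 by construction.

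Compared by library number, the members had a median log2 difference, mutant minus wild type, of −0.12 for number 1, where 73 of 76 were lower in mutant. For numbers 2 and 3, 39 of 76 were lower in mutant in each. Without wild-type library 1 the median log2 fold change of the tested members was −0.01. Without wild-type library 2 it was −0.08, and it was −0.02 without mutant library 2 and −0.06 without mutant library 3. The small downward tilt of the members thus depended on which library was left out. Summed markers of other cell types also differed between libraries, each list having reads for all its genes. The 6 interneuron markers summed to 553, 480 and 523 CPM in mutant libraries 1 to 3 and 597, 480 and 553 CPM in wild-type libraries 1 to 3. The 6 astrocyte and radial glia markers summed to 1179, 1091 and 1173 CPM in mutant libraries and 1184, 1017 and 1109 CPM in wild-type libraries. The 5 meninges markers summed to 338, 122 and 104 CPM in mutant libraries and 409, 262 and 82.4 CPM in wild-type libraries. All 3 sums were highest in wild-type library 1, and the sum of the 8 neocortex markers was lowest there. Their part in the shift was not tested.

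**Figure D5:**
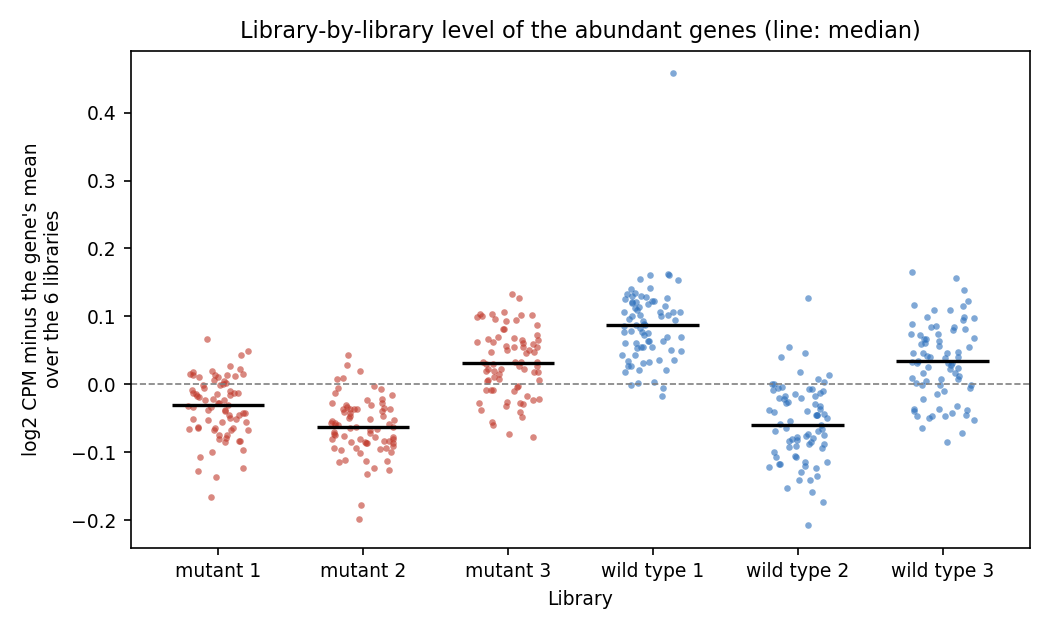
Each point is an abundant oxidative phosphorylation gene, shown in each library as log2 CPM minus its mean over the 6 libraries, with mutant libraries (red) left of wild-type libraries (blue) and lines at the medians. Nearly all genes of wild-type library 1 lie above 0 and most of mutant libraries 1 and 2 and of wild-type library 2 lie below it.

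Counting genes whose libraries did not overlap gave 5 of 81 members with all mutant libraries below all wild-type libraries (6.17%, against 6.09% of all tested genes) and 0 of 81 with all mutant libraries above (against 7.42%). The 5 were Cox5b, Ndufa8, Ndufb10, Ndufb5 and Ndufb6, the last 4 being accessory subunits of complex I, and they are named after their values were seen. Ndufb10 had 55.0, 53.7 and 55.3 CPM in mutant libraries and 58.5, 58.6 and 59.7 CPM in wild-type libraries, and its log2 fold change was −0.11 (SE 0.05, edgeR adjusted p = 0.753). Ndufb5 had 66.2, 68.2 and 70.0 CPM in mutant libraries and 76.1, 71.3 and 76.3 CPM in wild-type libraries, and its log2 fold change was −0.13 (SE 0.06, edgeR adjusted p = 0.709).

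The blocked test made calls among the members only when libraries numbered 2 were left out. It then called 8 members lower, 9.88% of the 81 against 5.16% of 14628 genes called lower at that setting and 12.8% called in either direction. They were Atp5f1, Cox5b, Cox7a2l, Cox7b, Ndufb5, Ndufc2, Ndufv2 and Uqcrfs1, the Rieske iron-sulfur protein of complex III. Cox7b had the smallest edgeR adjusted p there, 0.000408 with a log2 fold change of −0.22, against 0.398 with the block on all 6 libraries and 0.922 without the block. These calls rest on 2 libraries per genotype, among them wild-type library 1.

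Genes that build and feed the complexes gave few calls. Of 103 names in 9 lists, 102 were in the table and 101 were tested. The unpaired edgeR test called 0 of 101, against 0.0752% of all tested genes, and DESeq2 called 0, against 0.739%. At an unadjusted p under 0.05 the unpaired test passed 1 gene, 0.99% of the lists against 7.09% of all tested genes. This was Coq5, a methyltransferase of coenzyme Q synthesis. Coq5, named for that unadjusted p, had 33.4, 31.8 and 34.1 CPM in mutant libraries, against 24.7, 28.3 and 29.8 CPM in wild-type libraries, without overlap (log2 fold change 0.26, SE 0.09, edgeR adjusted p = 0.517, or 0.0661 with the block). All mutant libraries lay above all wild-type libraries in 7.42% of all tested genes. Other genes of these lists also did not overlap, some with mutant higher and some with mutant lower. With the block 1 of 101 was called, 0.99% against 3.46% of all tested genes. This was Pprc1, a coactivator of the PGC-1 family that works with NRF-1. It had 72.6, 78.1 and 67.8 CPM in mutant libraries and 57.5, 71.8 and 58.7 CPM in wild-type libraries, and mutant library 3 lay below wild-type library 2. Its log2 fold change was 0.22 (SE 0.10, edgeR adjusted p = 0.728 without the block and 0.0382 with it). With the block and without the libraries numbered 2, 8 of 100 list genes were called, 8% against 12.8% of all tested genes, 4 of them higher and 4 lower in mutant.

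The median log2 fold changes of the lists lay between −0.06 for carriers of ATP, ADP and phosphate and 0.06 for complex II and III assembly factors. The 14 complex I assembly factors ran from −0.15 for Ndufaf5 to 0.20 for Tmem126b, and the 21 tested complex IV assembly factors from −0.18 for Cmc1 to 0.24 for Coa4. The 17 genes of pyruvate dehydrogenase and the citrate cycle ran from −0.14 for Pdhb to 0.08 for Suclg1. Among the regulators, Nrf1 had 46.6, 43.8 and 45.4 CPM in mutant libraries and 53.9, 45.6 and 47.4 CPM in wild-type libraries, overlapping by 46.6 against 45.6 CPM (log2 fold change −0.11, SE 0.08, edgeR adjusted p = 0.842). Ppargc1a, which encodes PGC-1 alpha, had 10.6 to 12.3 CPM in mutant libraries and 10.5 to 13.8 CPM in wild-type libraries (log2 fold change −0.16, SE 0.14, edgeR adjusted p = 0.881).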

How the data were processed

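Data were RNA sequencing counts from 6 neocortex libraries, 3 Tshz3 mutant and 3 wild type, made with a stranded kit per the labels' protocols. The authors deposited raw counts of reads per gene symbol, not normalized. Per the submitters' processing notes, the build was mm10 and the tools included TopHat2 2.0.9 and HTSeq 0.5.3p9. The sources used here give neither their settings nor the annotation nor whether counting used strand. Reads of a member and an overlapping or near-identical gene could therefore be shared or lost. By GENCODE M21 (GRCm38), 23 members overlapped an exon of a gene on the opposite strand and 4 on the same strand, and 5 had at least 50% of their transcript in a copy of at least 97% identity (BLAST, alignments of at least 50 bases). All 86 symbols matched RefSeq, 3 by synonym. All 6 sample columns were used, 0 were left out.

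Tests used edgeR 4.0.16 under R 4.3.3 (quasi-likelihood test, robust, TMM scaling, default expression filter, two-sided, Benjamini-Hochberg over 14618 genes, threshold 0.05). The fit was also run on simulated data with changes larger than those of the members and no effect shared by library number. That run does not show whether changes as small as the members' would be found. Intervals are at 95% and not adjusted. CPM use TMM-scaled totals. Of the 86 genes, 81 were tested, Cox8b, Cox8c and Ndufs5 had no read, and Cox6a2 and Cox7b2 were too low. Alternatives were the library number as a block, DESeq2 1.42.0, other scalings, no filter and each library or pair left out. Total counts of 18569383 to 24147810 give small counting errors for abundant members. Replicates differed beyond sampling noise (chi-square over its degrees of freedom, 7.13 to 23.1). The p-values of the main fit therefore measure the spread between libraries of a genotype. That spread holds differences between pools together with anything shared by libraries of the same number. Same-numbered libraries deviated together (correlations 0.614, 0.514 and 0.467). The main fit had no block and did not pair them. Only the fits with the library number as a block and the comparisons by library number treated them as pairs. This pairing comes from the data and not from the labels. The limit for 0 counts was 3 counts per library and covers counting error only.

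Per-library values were given for members past the threshold with or without the block (none), for the highest and lowest fold change and the highest level per length in each complex, for isoform pairs, and for Cyc1 and Cycs, and further genes are marked as named after their values were seen. The members, lists and markers were chosen with earlier results of these data known. Transcript length was that of the shortest best-supported principal transcript, and this choice and the bound of 10 CPM were made after seeing the data. 1 gene is counted in the totals but is not reported here by itself.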

Additional observations from a re-analysis of the deposited data

How the results depend on the processing

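The count of members past the threshold stayed at 0 with the replicate block, DESeq2, RLE or upper-quartile scaling and no expression filter. With a library or a same-numbered pair left out it ran from 0 to 8, all lower in mutant, and the 8 came from the block without libraries numbered 2. The related lists gave 1 call with the replicate block, Pprc1, and 0 to 8 with a library or pair left out, the 8 again with the block without libraries numbered 2, against 0 in the other settings, and the cause was not tested. The median log2 fold change of the tested members ran from −0.08 to 0.00 with libraries left out. Of the 28 genes that the rule named and that were tested, 0 changed sign under another scaling, test, filter or the block, and 14 did with a library or pair left out. Their lowest and highest log2 fold changes were −0.06 and 0.07 for Atp5g1, −0.06 and 0.03 for Atp5g2, −0.08 and 0.04 for Atp5g3, −0.01 and 0.10 for Atp5k, −0.23 and 0.22 for Cox4i2, −0.08 and 0.02 for Cox6b1, −0.40 and 0.36 for Cox6b2, −0.49 and 0.00 for Cox7a1, −0.13 and 0.01 for Cox7a2, −0.07 and 0.05 for Cyc1, −0.05 and 0.07 for Cycs, −0.06 and 0.06 for Sdhd, −0.03 and 0.12 for Uqcr11, and −0.09 and 0.03 for Uqcrh. None of these 14 was past the threshold in any setting. Of 20 further genes named after their values were seen, 4 changed sign with a library or pair left out, between −0.05 and 0.06 for Atp5d, −0.30 and 0.06 for Cox7b, −0.03 and 0.07 for Ndufs8 and −0.05 and 0.06 for Ndufv1. Ndufv1 alone also did so with the block, DESeq2 and RLE scaling (0.00) and without a filter (0.01). The cause was not tested. The scarce isoforms were the least precise: the SE of the log2 fold change was 0.28 for Cox4i2, 0.36 for Cox7a1 and 0.38 for Cox6b2, against 0.05 to 0.17 for members of at least 10 CPM. With the block the SE of Cox6b2 was 0.23 at the same depth.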
